A study of Mus musculus with 47 samples.

Results

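Reads on 9 genes of the trans-synaptic adhesion system were compared between auditory cortex (AC) and hippocampal area CA3, in neurons positive for neuropeptide Y (NPY). The genes were chosen by name, as the rows of 2 neurexins (*Nrxn2* and *Nrxn3*), 3 neuroligins (*Nlgn1*, *Nlgn2* and *Nlgn3*) and 4 leucine-rich repeat transmembrane proteins (*Lrrtm1* to *Lrrtm4*), out of the 22800 gene rows of the count table. Each library held cytosol that was drawn into the patch pipette from 1 neuron after recording, so each sample was 1 cell. All cells came from mice of 3 to 8 weeks of the NPY-hrGFP strain, named NPY-EGFP in the series text, in which a green fluorescent protein under the NPY promoter marks the cells to be patched. The 10 AC cells (N3X, N4, N41 to N44, N46, N5, N7 and N8) lay in the superficial layers of coronal slices. The 13 CA3 cells (N26 to N34 and N37 to N40) lay in the stratum lacunosum-moleculare of horizontal slices, and 3 CA1 cells (N1, N2X and N6) are given beside them. The plane of the slice therefore went with the region, and these cannot be told apart. The series text counts 8 mice in all and does not tie a cell to a mouse. For this reason each region was taken as 1 sample, no test was made, and SDs describe the spread of cells only.

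Neurexins sit in the presynaptic membrane and reach across the cleft to postsynaptic partners. Neuroligins and LRRTMs are 2 families of such partners, which compete for overlapping sites on neurexins. NLGN1 is known mainly from excitatory synapses and NLGN2 from inhibitory ones, while NLGN3 has been found at both. LRRTMs are known as organizers of excitatory synapses, where they bind neurexins and help to hold AMPA receptors in place. In an interneuron, neurexin transcripts are thus mainly linked to the output side of the cell, and neuroligin and LRRTM transcripts to the synapses it receives. Transcripts do not show where the proteins were placed.

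The coding ends of 6 of the genes are shown first, since the last codons encode the tail by which these proteins hold on to scaffolds with PDZ domains inside the synapse. Each line gives the last 45 coding bases before the stop codon, 5′ to 3′, from a GENCODE M21 transcript on GRCm38, with the last 12 bases in capitals.
Nrxn2: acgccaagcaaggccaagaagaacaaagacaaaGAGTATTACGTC
Nrxn3: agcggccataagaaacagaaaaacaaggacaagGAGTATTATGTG
Nlgn1: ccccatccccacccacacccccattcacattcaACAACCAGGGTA
Nlgn2: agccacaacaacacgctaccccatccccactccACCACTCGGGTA
Nlgn3: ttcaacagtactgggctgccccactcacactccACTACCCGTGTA
Lrrtm1: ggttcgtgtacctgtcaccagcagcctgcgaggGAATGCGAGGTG
These stretches lie in coding exons at chr19:6532101-6532145 (plus strand) for *Nrxn2*, chr12:90332363-90332407 (plus) for *Nrxn3*, chr3:25433641-25433685 (minus) for *Nlgn1*, chr11:69825206-69825250 (minus) for *Nlgn2*, chrX:101320215-101320259 (plus) for *Nlgn3* and chr6:77245083-77245127 (plus) for *Lrrtm1*. *Nrxn2* and *Nrxn3* encode the same 4 last residues, with 10 of the 12 capital bases alike. The 3 neuroligins also encode the same 4 last residues as each other, with 9 of 12 bases alike in every pair. Each neurexin end shares 1 of its 4 last residues with each neuroligin and 2 of 4 with LRRTM1. The ends of *Lrrtm3* and *Lrrtm4*, not shown, share 0 of 4 last residues with that of *Lrrtm1* and with each other. The annotation gives *Nrxn2* and *Lrrtm4* 2 stop positions each, of which 1 was used. The table gives 1 count per gene, so splice forms and alternative starts of the neurexins could not be read.

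The depth was 1715012 to 6265431 reads on genes per AC cell (median 3271802), 2229519 to 7949918 per CA3 cell (median 3595383) and 601781 to 3202430 per CA1 cell. AC cells had reads on 3163 to 6288 genes (median 5007.5) and CA3 cells on 3679 to 8149 (median 5704). The GABAergic markers *Gad1*, *Gad2* and *Slc32a1* summed to 2221 to 17749 CPM (reads per 1000000 reads on genes) in AC cells and to 3033 to 15512 CPM in CA3 cells, and *Npy* was read in all 26 cells. Pyramidal neuron markers summed to a median of 0.345 CPM in AC (range 0 to 104) and 0.401 CPM in CA3 (0 to 204). Markers of other cells were also read. Astrocyte markers summed to 0.246 to 3015 CPM in AC (median 217, highest in N4) and to 0 to 660 CPM in CA3 (median 37.9), with *Aqp4* at 0 in both. Microglia markers summed to 0 to 3707 CPM in AC (median 205, highest in N42) and to 0 to 1864 CPM in CA3 (median 84.3), with *Tmem119* at 0 in both. Oligodendrocyte markers had a median of 0 CPM in AC (highest 367) and of 7.41 CPM in CA3 (highest 955), with *Mog* at 0. The part of these other cells in the values below was not tested.

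Among the 9 genes, the 2 neurexins were higher in AC and 6 of the 7 postsynaptic partners were higher in CA3, as a mean over cells. The level of a gene in a cell is log2(count divided by the scran size factor of the cell + 1), and a difference of at least 1 between the mean levels of the regions is spoken of as higher. By this rule *Nrxn2* and *Nrxn3* were higher in AC, against 16.6% of the 5964 genes that were read in 10 or more of the 23 cells. *Nlgn2*, *Nlgn3* and *Lrrtm1* to *Lrrtm4* were higher in CA3, against 46.9% of the 5964 genes. With 13 CA3 and 10 AC cells, a gene read in CA3 alone could reach 10 cells more easily than one read in AC alone. The median difference of the 9 genes (AC minus CA3) was -1.10 and that of the 5964 genes was -0.84, with 4048 of the 5964 genes below 0. Relative to this median gene, the 2 neurexins were at least 1 higher in AC, against 29.3% of the 5964 genes, and *Nlgn3*, *Lrrtm1*, *Lrrtm2* and *Lrrtm4* were at least 1 higher in CA3, against 29.9%. *Lrrtm3* and *Lrrtm4*, each with a read in 9 of the 23 cells, did not pass the filter of 10 cells that the 5964 genes passed. Of the 7 genes past it, 4 were at least 1 higher in CA3, against 46.9% of the 5964 genes. Relative to the median gene 3 of these 7 were, against 29.9%. The ranges of AC and CA3 cells overlapped for each of the 9 genes.

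**Figure D1:**
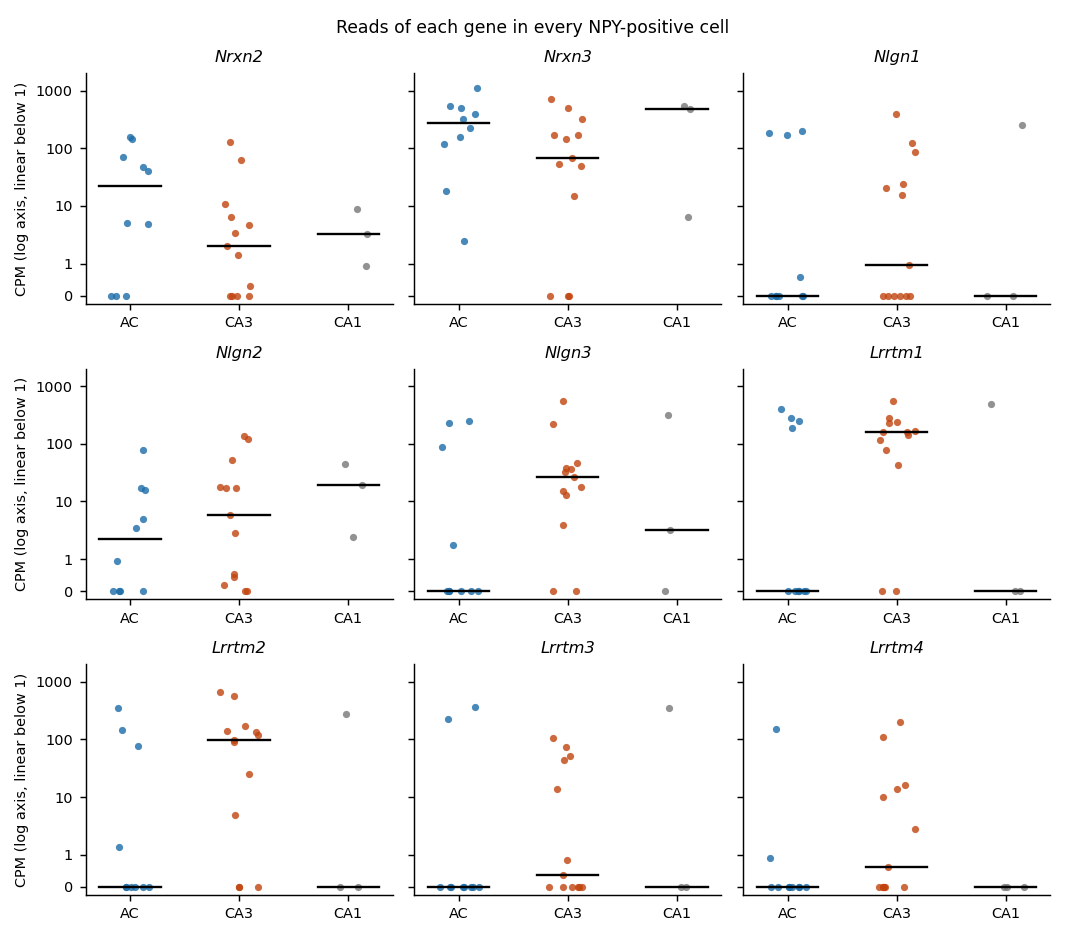
CPM of each gene (y axis, logarithmic above 1 and linear below) in every AC, CA3 and CA1 cell, 1 point per cell, with a black line at the median of the region. *Nrxn3* was read in all 10 AC cells, while *Lrrtm1* was either at 0 or at 188 CPM and more in AC and was above 0 in 11 of 13 CA3 cells.

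*Nrxn3* had reads in 10 of 10 AC cells, 10 of 13 CA3 cells and 3 of 3 CA1 cells. In AC its CPM ran from 2.46 in N46 to 1103 in N42 with a median of 274, in CA3 from 0 to 721 in N29 with a median of 67.7, and in CA1 from 6.50 to 542 with a median of 479. The 3 CA3 cells without a read were N26, N27 and N37. Mean levels were 9.25 ± 2.55 (SD, n = 10) for AC and 6.80 ± 4.17 (SD, n = 13) for CA3, which differed by 2.45, or 3.29 relative to the median gene. Summed over cells, *Nrxn3* reads came to 348 CPM for AC (95% interval by the exact Poisson method 341 to 354) and to 172 CPM for CA3 (168 to 176), a ratio of 2.02, which ran from 1.46 without N42 to 2.60 without N29. All such intervals cover counting error only, since amplified reads are not independent molecules. Among the cells with a read, the mean levels of the regions lay only 0.41 apart, at 9.25 in AC and 8.84 in CA3.

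*Nrxn2* was read in a similar share of cells in the regions, 7 of 10 in AC and 9 of 13 in CA3, but at higher levels in AC. Its CPM reached 156 in N3X and 142 in N7 in AC, with a median of 22.4, whereas the CA3 median was 2.00 with N39 at 128 CPM, N27 at 62.0 CPM and the other CA3 cells at 10.9 CPM or below. Mean levels were 5.004 ± 3.76 for AC and 3.12 ± 2.95 for CA3 (SD, n = 10 and 13), which differed by 1.88, or 2.72 relative to the median gene. In the cells with a read the difference was 2.64, larger than over all cells. N39 alone held 80.0% of the CA3 reads on *Nrxn2*, so that the summed CPM of 41.96 in AC and 26.035 in CA3 differed less, by 1.61 times. This ratio was 6.76 without N39 and 1.02 without N3X. All 3 CA1 cells had a few reads, at 0.937 to 8.94 CPM. Per kilobase of exon, summed reads of *Nrxn3* were above those of *Nrxn2* in both regions, at 27.6 against 3.04 CPM per kilobase in AC and 13.6 against 1.88 in CA3. Within cells, *Nrxn3* held a median of 94.96% of the length-corrected reads of the pair in AC and 96.4% in CA3. *Nrxn2* led the pair in N46 of AC (94.5%) and in N27 of CA3 (100%), and *Nrxn3* in the other 9 AC and 10 CA3 cells with at least 10 reads on the pair.

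Of the neuroligins, *Nlgn3* differed most in the number of cells. It was read in 4 of 10 AC cells, or 40% (12.2 to 73.8 by the exact Clopper-Pearson method at 95%), and in 11 of 13 CA3 cells, or 84.6% (54.6 to 98.1). Its AC values were 253 CPM in N8, 232 in N7, 88.3 in N5 and 1.75 in N4, and the other AC cells were at 0. In CA3 it ran from 0 in N26 and N27 through a median of 26.1 CPM to 221 in N40 and 553 in N28. Mean levels were 3.04 ± 4.36 for AC and 5.89 ± 3.24 for CA3 (SD, n = 10 and 13), which differed by -2.85, or -2.01 relative to the median gene. In the cells with a read the mean level was instead 0.63 higher in AC, at 7.59 against 6.96. The summed CPM was 66.8 in AC (64.1 to 69.6) and 65.0 in CA3 (62.8 to 67.3). N8 held 69.6% of the AC reads, and without it the AC sum was 24.9 CPM. Without N28 the CA3 sum was 40.1 CPM. In CA1 *Nlgn3* was read in N2X at 320 CPM and in N6 at 3.25 CPM.

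*Nlgn2*, the neuroligin of inhibitory synapses, was read in 6 of 10 AC cells and 11 of 13 CA3 cells. AC cells ran from 0 to 78.1 CPM in N3X with a median of 2.19, and CA3 cells from 0 to 139 CPM in N37 with a median of 5.75. The mean levels were 3.05 ± 3.00 and 4.15 ± 3.23 (SD, n = 10 and 13), a difference of -1.10 that shrank to -0.26 relative to the median gene. It ran from -1.64 without N3X to -0.72 without N39, and was smaller than 1 in size when any of 10 of the 23 cells was left out. Many of the CA3 values were low. With at least 10 reads asked for, 7 CA3 and 5 AC cells were left, and after thinning every cell to 601000 reads the gene was seen in 53.8% of CA3 cells and 50% of AC cells. In summed reads *Nlgn2* was 3.07 times higher in CA3 (38.8 CPM) than in AC (12.6 CPM), with 73.7% of the AC reads from N3X and 50.3% of the CA3 reads from N39. The ratio was 10.3 without N3X and 1.82 without N39. All 3 CA1 cells had *Nlgn2* reads, at 2.44 to 44.9 CPM.

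*Nlgn1*, the neuroligin of excitatory synapses, differed less than 1 in mean level with all 23 cells of the comparison in. It was read in 4 of 10 AC cells, at 200, 183, 171 and 0.583 CPM in N43, N8, N5 and N4, and in 7 of 13 CA3 cells, at 0.958 to 389 CPM. The difference in mean level was -0.67 (2.97 ± 4.45 against 3.64 ± 3.98), which turned to 0.17 relative to the median gene, and the summed CPM was 61.5 in AC and 53.4 in CA3. N8 held 54.7% of these AC reads and N37 63.6% of these CA3 reads, and the sums were 34.1 CPM in AC without N8 and 21.3 CPM in CA3 without N37. The summed CPM was also lower in AC than in CA3 without N43 (47.6 CPM in AC) or without N39 (63.8 CPM in CA3). Single cells moved the difference in mean level past 1, to -1.41 without N43, -1.39 without N8 and -1.34 without N5, and it was -0.12 without N37. With medians over cells it was -1.83. With all labelled cells the difference was -1.32, and with the cells left by the stated filter of the study -1.31. In CA1 *Nlgn1* was read in 1 cell, N6, at 251 CPM.

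**Figure D2:**
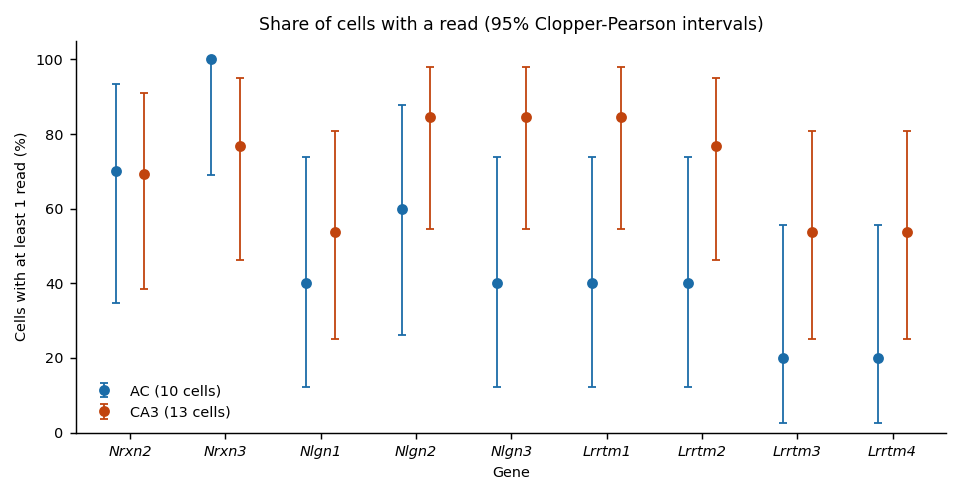
Percentage of the 10 AC and 13 CA3 cells with at least 1 read on each gene (y axis), with exact Clopper-Pearson 95% intervals, which treat cells as independent draws and leave out any spread between mice. The shares were nearly alike for *Nrxn2* (70% and 69.2%), higher in AC for *Nrxn3* (100% and 76.9%) and higher in CA3 for the 7 other genes, with intervals that overlapped for all 9. CA3 cells also had reads on more genes of the whole table, with a median of 5704 against 5007.5 in AC. No share of cells over all genes is given beside these.

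*Lrrtm1* and *Lrrtm2* had the largest differences in mean level before the median gene was taken off, and *Nrxn3* after it. The latter order changed without N3X, with relative differences of -3.65 for *Lrrtm1*, -3.51 for *Lrrtm2* and 3.10 for *Nrxn3*. It also changed with medians over cells (-8.09 for *Lrrtm1* and 3.21 for *Nrxn3*). *Lrrtm1* was read in 4 of 10 AC cells, at 402 CPM in N3X, 278 in N4, 251 in N43 and 188 in N46. In CA3 it was read in 11 of 13 cells, from 42.1 CPM in N34 to 551 in N39, with N27 and N29 at 0 and a median of 158 over all cells. Mean levels were 3.98 ± 5.14 for AC and 7.73 ± 3.55 for CA3 (SD, n = 10 and 13), which differed by -3.75, or -2.91 relative to the median gene. Summed CPM was 102.8 in AC (99.5 to 106) and 206 in CA3 (202 to 210), so 2.00 times higher in CA3, or 3.29 times without N3X and 1.35 times without N39. The values in AC cells with a read lay within those of the CA3 cells with a read, and their mean level was 0.81 higher. A single CA1 cell, N2X, had *Lrrtm1* reads, at 491 CPM.

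*Lrrtm2* was read in 4 of 10 AC cells (347 CPM in N3X, 144 in N8, 77.7 in N5 and 1.37 in N41) and in 10 of 13 CA3 cells (4.93 CPM in N26 to 664 in N38, median over all 13 cells 96.8). The mean levels were 3.00 ± 4.27 and 6.53 ± 4.13 (SD, n = 10 and 13), a difference of -3.52, or -2.68 relative to the median gene. Summed CPM was 72.4 in AC and 141 in CA3, a ratio of 1.95 in favour of CA3. N3X held 57.2% of the AC reads, and without it the AC sum was 35.2 CPM and the ratio 4.005. The ratio was 1.36 without N38 and 1.49 without N31. In CA1 *Lrrtm2* was read in N6 alone, at 277 CPM.

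*Lrrtm3* and *Lrrtm4* were seldom read in AC, in 2 of 10 cells each, and in 7 of 13 CA3 cells each. The 2 AC cells with *Lrrtm3*, N4 (370 CPM) and N3X (222 CPM), were both above the highest CA3 cell, N32 with 108 CPM. In CA1 *Lrrtm3* was read in N6 alone, at 353 CPM. The mean level differed by -1.06 (1.97 ± 4.15 in AC against 3.02 ± 3.53 in CA3), or -0.22 relative to the median gene, while the summed CPM was 2.06 times higher in AC, at 45.05 against 21.9. N3X held 58.6% of these AC reads, and without it the AC sum was 21.2 CPM, 0.968 times that of CA3. The ratio was 1.27 without N4 and 2.81 without N32. The difference in mean level was -1.98 without N4, -1.88 without N3X and -0.63 without N32, and it was smaller than 1 in size when any of 13 cells was left out. Of the AC reads on *Lrrtm4*, 99.8% came from N8 (152 CPM), and N7 had 0.888 CPM. The summed CPM was 28.04 in AC and 20.4 in CA3, with 0.0720 in AC without N8 and 10.9 in CA3 without N27. In CA3 *Lrrtm4* ran up to 197 CPM in N27 and 108 CPM in N32, with a median of 0.601 over all 13 cells. Mean levels were 1.12 ± 2.90 for AC and 3.00 ± 3.47 for CA3, which differed by -1.89. Relative to the median gene this was -1.05, or -1.82 without N8 and -0.40 without N27, and it was smaller than 1 in size when any of 11 cells was left out. No CA1 cell had a read on *Lrrtm4*, and 3 reads over the summed CA1 reads would be 0.596 CPM.

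**Figure D3:**
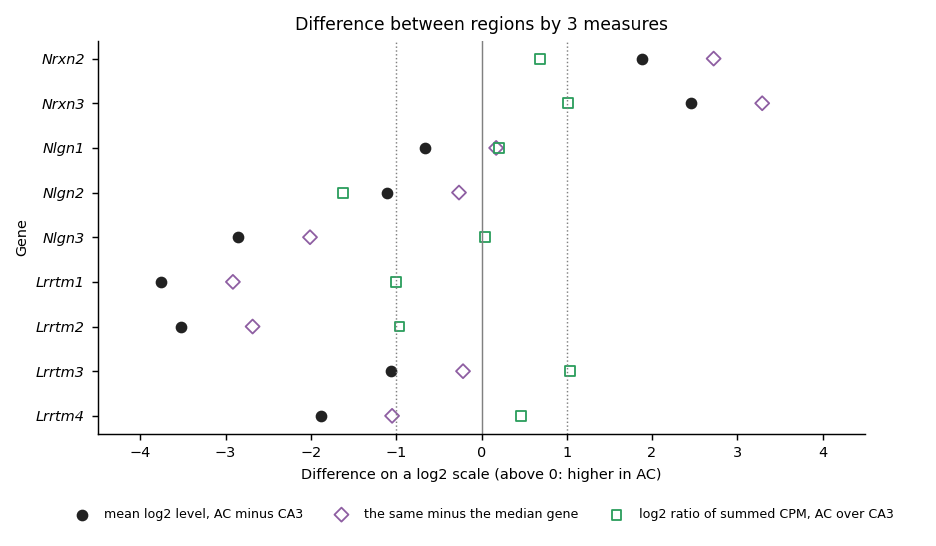
Difference between AC and CA3 for each gene on a log2 scale (x axis, above 0 is higher in AC) as the mean level over cells (filled circles), the same minus the median gene (open diamonds), and the ratio of summed CPM (open squares), with dotted lines at 1 and -1. The neurexins lay above 0 in all 3 measures, and *Nlgn1*, *Nlgn3*, *Lrrtm3* and *Lrrtm4* lay below 0 as mean levels and above 0 in summed reads (0.20, 0.040, 1.04 and 0.46).

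The mean level over cells and the summed reads thus gave different pictures of the same genes. In mean level 6 genes were at least 1 higher in CA3, while by the log2 ratio of summed CPM only *Nlgn2* was (-1.62), with *Lrrtm1* (-0.999) and *Lrrtm2* (-0.96) just inside the limit. In favour of AC, *Nrxn3* (1.02) and *Lrrtm3* (1.04) passed a log2 ratio of 1 in summed CPM, and *Nrxn2* (0.69) did not. Of the 5964 genes, 19.3% were at least 1 higher in AC and 23.1% at least 1 higher in CA3 by this ratio, with a median gene of -0.09. The mean level averages log values over cells, whereas summed CPM adds up reads, and several of the summed ratios moved by over 1.5 times when 1 cell was left out, as given with each gene.

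On average, CA3 cells had reads on more of the 9 genes than AC cells, with overlapping ranges. AC cells had reads on 2 to 7 of the 9 genes (median 4.5, mean 4.30 ± 1.77, SD, n = 10), CA3 cells on 4 to 9 (median 7, mean 6.38 ± 1.98, n = 13) and the CA1 cells on 3, 5 and 7. N42 and N44 of AC had reads on the neurexins alone, and N32 and N33 of CA3 had reads on all 9 genes. Of the pairs of a gene and a cell, 47.8% had a read in AC and 70.9% in CA3. No such share over all genes is given beside these. Thinned to 601000 reads, AC cells had reads on 4 ± 1.63 of the genes and CA3 cells on 5.92 ± 1.80. The number of genes detected overall also had the higher median in CA3, as given above, and its part in this count was not tested. In total reads the regions lay close, with a median of 700 CPM on the 9 genes per AC cell (22.9 in N41 to 1710 in N3X) and of 747 CPM per CA3 cell (147 in N26 to 1476 in N38).

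**Figure D4:**
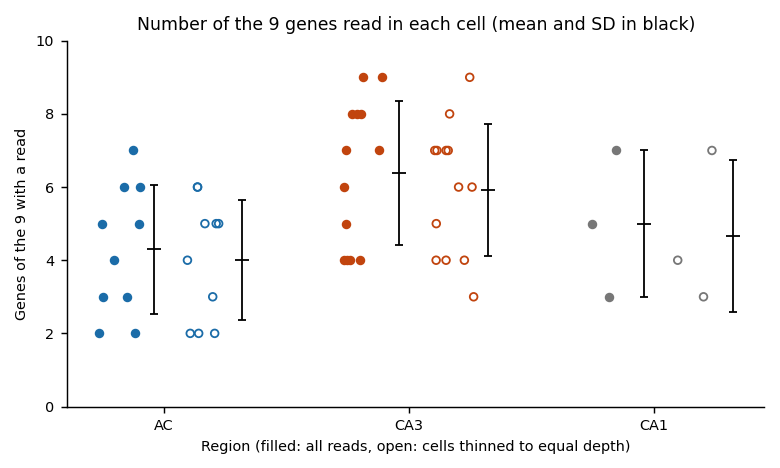
Number of the 9 genes with a read (y axis) in each AC, CA3 and CA1 cell, with all reads (filled) and after thinning to 601000 reads (open), with the mean and SD over cells in black. CA3 cells averaged 6.38 genes and AC cells 4.30, and their ranges (4 to 9 and 2 to 7) overlapped.

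Within a family, 1 member tended to take most of the reads of a cell, but not the same member in each cell. Of 7 AC cells with at least 10 neuroligin reads, *Nlgn2* led per kilobase in 3 (N3X, N4 and N41), *Nlgn1* in 2 (N43 and N5) and *Nlgn3* in 2 (N7 and N8). Of 13 CA3 cells, *Nlgn3* led in 7, *Nlgn1* in 4 and *Nlgn2* in 2 (N27 and N39). The leading neuroligin held a median of 92.1% in AC and 85.9% in CA3. All 3 neuroligins were read together in 2 AC cells (N4 and N8) and in 6 CA3 cells. For the LRRTMs, *Lrrtm1* led in 4 of 6 AC cells and 8 of 13 CA3 cells, *Lrrtm2* in 1 and 4, and *Lrrtm4* in 1 and 1, with *Lrrtm3* leading in none. The leading LRRTM held a median of 77.3% in AC and 66.7% in CA3. These leads rest on division by exon length. In undivided reads *Lrrtm3* led in N4 (635 against 477 on *Lrrtm1*) and *Lrrtm2* in N28 (327 against 182 on *Lrrtm1*). All 4 LRRTMs were read in 4 CA3 cells, N31 to N34, and in none of the AC cells.

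**Figure D5:**
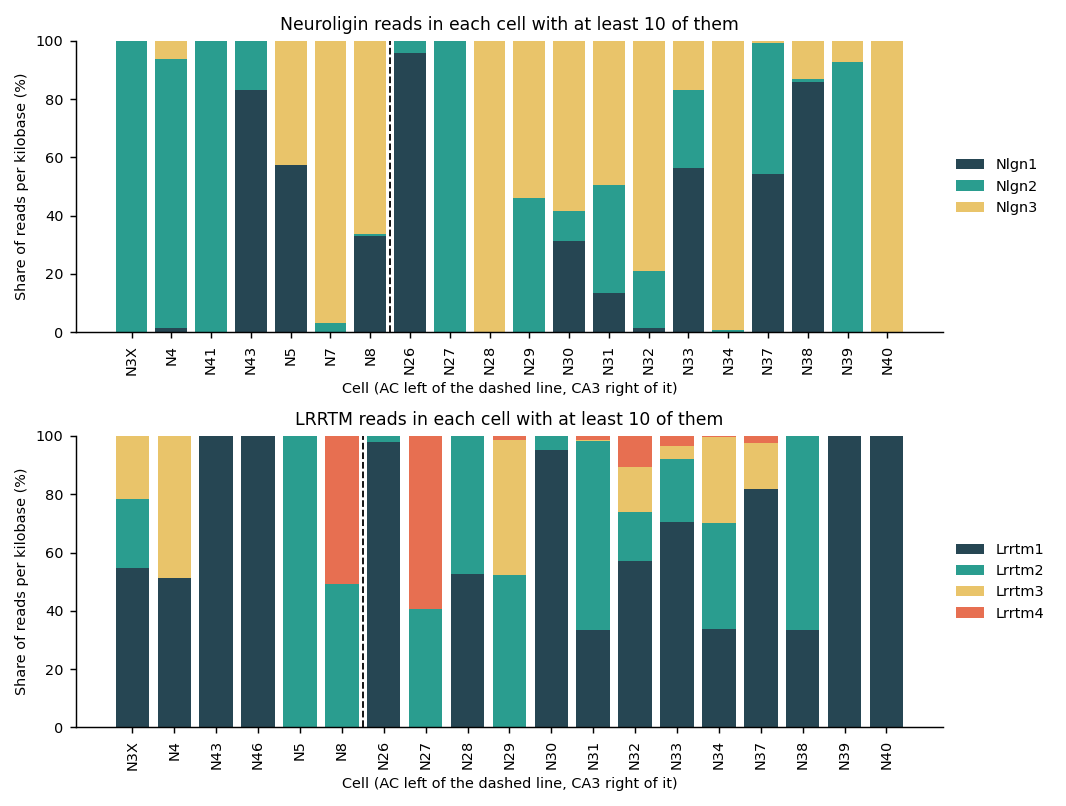
Share of each gene in the neuroligin reads (top) and LRRTM reads (bottom) of a cell, after division by exon length (y axis, %), for AC and CA3 cells with at least 10 reads on the family, 1 bar per cell. The leading gene changed from cell to cell in both regions, with *Nlgn3* leading in 7 of 13 CA3 cells and *Lrrtm1* in 8 of 13.

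*Lrrtm1*, *Lrrtm2* and *Lrrtm3* lie inside the α-catenin genes *Ctnna2*, *Ctnna1* and *Ctnna3*, on the opposite strand. The Nextera XT libraries do not mark the strand, so reads of overlapping genes cannot be told apart by it. *Ctnna3* had no read in any of the 23 cells, while *Lrrtm3* was read in 9. *Ctnna2* had reads in 7 cells of AC and 10 of CA3, with 10 cells in common with *Lrrtm1*, and its level had a Spearman rho of -0.08 with that of *Lrrtm1* over the 23 cells. *Ctnna1* had reads in 2 cells of each region (rho -0.04 with *Lrrtm2*).

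The other genes of the neurexin pathway lay in both directions. Of 81 listed partners, 40 passed the filter on low counts, of which 13 were at least 1 higher in AC and 11 at least 1 higher in CA3, with a median difference of 0.37. Over the 5964 genes these shares were 16.6% and 46.9%, which stand as the background for the lists below too. Relative to the median gene, the counts were 21 and 9, against 29.3% and 29.9% of the 5964 genes.

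Among the secreted neurexin ligands only *Nxph1* and *Fam19a5* passed the filter. *Nxph1*, a neurexophilin that binds neurexins, was higher in AC by 1.68 with reads in 9 of 10 AC cells and 11 of 13 CA3 cells, at a summed 709 and 422 CPM. *Fam19a5* differed by -2.50. Of the other membrane receptors of neurexins, 2 of 5 were higher in AC and 1 in CA3. The latrophilin *Adgrl3* had the largest difference in favour of AC (2.77, summed CPM 122 and 19.4) and the calsyntenin *Clstn2* the largest in favour of CA3 (-4.24, summed CPM 22.6 and 158).

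Of the presynaptic scaffolds of neurexins, 2 of 7 were higher in AC and 4 in CA3. The adaptor *Apba1* differed by 1.62 and *Lin7a* by -5.13, with reads in 5 of 10 AC cells and 12 of 13 CA3 cells. Of 10 postsynaptic partners of neuroligins, 4 were higher in AC (16.6% of all genes) and 1 in CA3 (46.9%). The scaffold *Dlg3*, a relative of PSD-95, differed by 2.64 (9 of 10 AC and 7 of 13 CA3 cells). *Dlg1*, which encodes a scaffold of the same family, differed by -2.21 (6 of 10 AC and 10 of 13 CA3 cells), while its summed CPM was 98.2 in AC and 96.9 in CA3.

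Of the heparan sulphate proteoglycans, 1 of 10 passed the filter, *Gpc1*, at -1.30, or -0.46 relative to the median gene. Its summed CPM was 75.6 in AC and 74.9 in CA3. Of 9 receptor tyrosine phosphatases and ligands, 1 was higher in AC (*Il1rap*, 1.59) and 2 in CA3, led by *Ptprd* (-2.50). Neither of the neurexin splicing factors past the filter, *Khdrbs1* (-0.75) and *Khdrbs3* (-0.02), reached a difference of 1. Of the other leucine-rich repeat adhesion genes, 3 of 4 were higher in AC (16.6% of all genes), led by the netrin-G ligand *Lrrc4c* (1.45). *Flrt2*, whose product binds latrophilins, had no read in the 10 AC cells, where 3 reads would be 0.0881 CPM, and was read in 11 of 13 CA3 cells at a summed 134 CPM. It thus passed the filter through CA3 cells alone.

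Genes whose level followed that of a member most closely over the 23 cells were ranked by Spearman rho among 3200 genes that 15 or more cells had reads on. For *Nrxn3* this was *Gria4*, an AMPA receptor subunit, with a rho of 0.70 (0.67 within AC and 0.81 within CA3), ahead of *Tmem57* (0.68, with 0.45 in CA3). For *Nrxn2* these were *Hdac4* (0.65, with 0.45 in CA3) and the sodium channel *Scn8a* (0.61, with 0.41 in AC). *Nlgn2* was followed by *Atxn1* (0.79) and *Slc25a44* (0.78), *Nlgn3* by *Aurkaip1* (0.71, with 0.50 in CA3) and *Gm29394* (0.71), and *Nlgn1* by *Tnfaip1* (0.67, with 0.30 in CA3) and *Anp32e* (0.65). *Lrrtm2* was followed by *Camsap2* (0.80, with 0.80 in AC and 0.74 in CA3) and *Rufy3* (0.70, with 0.45 in CA3), and *Lrrtm1* by *Sbf1* (0.67, with 0.88 in AC and 0.39 in CA3) and the neuregulin receptor *Erbb4* (0.64). These values are the highest of many, the cells share region and depth, and they are a description only. Among the members themselves, the highest rho of the 36 pairs was 0.42, between *Nlgn2* and *Lrrtm3* (0.61 within AC and 0.20 within CA3).

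With all labelled cells taken in, 19 in AC and 21 in CA3, many of the added libraries did not carry the markers of their label. The sum of *Gad1*, *Gad2* and *Slc32a1* was 0 in 7 of the 8 added CA3 columns and in 4 of the 9 added AC columns, *Npy* was at 0 in 7 and 5 of them, and the same 7 CA3 columns held marker sums of astrocytes, oligodendrocytes or their precursors above 1000 CPM. With these libraries in, *Nrxn2* and *Nrxn3* were higher in AC, by 1.42 for *Nrxn2* and 1.41 for *Nrxn3*. *Nrxn3* then had reads in 15 of 19 cells of AC and 11 of 21 of CA3, *Nlgn3* in 8 and 14, *Lrrtm1* in 6 and 13 and *Lrrtm2* in 5 and 10. The difference was -2.54 for *Lrrtm1*, -1.80 for *Lrrtm2* and -1.66 for *Nlgn3*. *Nlgn1* (-1.32) was then past the limit of 1, while *Nlgn2* (-0.97) and *Lrrtm3* (-0.996) were inside it. As the median gene differed by -1.11 among these cells, the relative difference was -1.43 for *Lrrtm1*, -0.68 for *Lrrtm2* and -0.55 for *Nlgn3*.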

How the data were processed

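Raw counts of reads per gene symbol were deposited by the authors, with 47 cells as columns. By the methods of the study, trimming was done with Trimmomatic and Flexbar, alignment to GRCm38 with STAR, and counting with HTSeq, while the processing notes of the submitters name featureCounts. Identifiers were turned into symbols with annotation version 86, with the mean taken where several had 1 symbol, and nothing was normalized.

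The 26 cells and the genes were given as a list, and the members and lists were chosen with earlier results of these data known. The list of cells rests on an earlier match of the columns to the heat maps of the study, which was not repeated here and did not find all CA3 cells of the study, so the 13 CA3 cells are a part of those it used. Counts were divided by scran 1.30.0 size factors (pools of 10 and 20 cells, R 4.3.3) over 23 cells, and levels are log2(normalized count + 1). Shares within a family and levels per kilobase use the summed exon length of GENCODE M21. Cells were thinned once to 601000 reads with seed 1. No model was fitted. Each member was named, the gene with the largest difference past 1 in each direction for each partner list, and the 2 genes most like each member read in at least 10 cells. A few genes of the partner and marker lists were left out of all counts and sums and are not reported here.

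Alternatives were library size, edgeR 4.0.16 TMM and DESeq2 1.42.0 poscounts factors, pseudocounts of 10 and 0.1, counts under 10 set to 0, summed CPM, medians over cells, thinning, all labelled cells (N4 and N4X averaged as 1 cell, as their levels correlated at r = 0.995 against at most 0.724 in 399 other pairs), the cells left by the stated filter of the study, and each cell left out. Centring on the median gene, and the summed CPM with each cell left out, were added after seeing the data. The call of differences and the ranking of alike genes were tested on simulated data. The simulated mean counts had a floor, so the many zeros of the members were not imitated. Thinning and the shares within a family were not part of this test.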

Additional observations from a re-analysis of the deposited data

Results flagged for a closer look

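The *Lrrtm4* level of AC cell N8 lay far from those of the other 9 AC cells by Dixon's criterion, at 9.17 on the log2 scale. The other AC cells were at 0 except N7. Without N8 the difference in mean level between AC and CA3 was -2.78, against -1.89 with it. Such a criterion marks about 1 group in 20 by chance when values are normally distributed. With 8 of the 10 AC values at 0 that rate does not hold here.

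The NPY-negative cell of CA3 (N16), which entered no comparison, had reads on 1 of the 9 genes, *Nlgn3*, with 11 reads or 37.7 CPM at a depth of 291745 reads. Its oligodendrocyte markers summed to 164620 CPM and its GABAergic markers to 0. The 2 dentate gyrus cells, with 89297 and 190573 reads, had no read on any of the 9. Their GABAergic markers and *Npy* were at 0 too, and their astrocyte markers summed to 35231 and 33462 CPM. Oligodendrocyte markers summed to 39072 CPM in the first and 5.25 CPM in the second.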

How the results depend on the processing

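No paired analysis was possible because the replicate numbers only name cells, no mouse is given for any of them, and no test was made. The number of the 9 genes at least 1 higher in AC was 2 under every alternative run, though in summed CPM these were *Nrxn3* and *Lrrtm3* in place of the 2 neurexins. The number at least 1 higher in CA3 was 6, with a range of 4 to 6 when each cell was left out in turn, 3 with a pseudocount of 10, 7 with one of 0.1 (*Nlgn1* at -1.14) and 1 in summed CPM. It was 6 with *Nlgn1* in place of *Lrrtm3* without N43 or N8, 6 with *Nlgn1* in place of *Nlgn2* (-0.87) with medians over cells, and 5 with *Nlgn1* but without *Nlgn2* and *Lrrtm3* when N5 was left out. The number was 4 with counts under 10 set to 0 and 5 with thinning. With all labelled cells, and with those left by the stated filter, it was 5. In both of these *Nlgn1* (-1.32 and -1.31) was in, and *Nlgn2* and *Lrrtm3* were out. *Nlgn2* (-1.10) and *Lrrtm3* (-1.06) lay just past the limit of 1. Summed CPM turned the direction of *Nlgn1* (0.20), *Nlgn3* (0.040, or 0.13 relative to the median gene of summed CPM), *Lrrtm3* (1.04) and *Lrrtm4* (0.46, or 0.55 relative), and the cause was not tested. Relative to the median gene, the number higher in CA3 was 4, and it was 1 with all labelled cells, 1 with the cells left by the stated filter, 1 in summed CPM and 2 with a pseudocount of 10, with causes not tested. With medians over cells in place of means, *Nlgn3* differed by -6.64, *Lrrtm1* by -9.06 and *Lrrtm2* by -8.36. The median gene differed by -0.84 with scran factors and by -0.94 to -0.97 with the other factors. Precision is limited by the 10 AC and 13 CA3 cells, of unknown mice, since the spread of cells is far wider than the counting error of the summed reads.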

Other observations

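Outside the 26 cells, 9 further AC columns had reads on 0 to 6 of the 9 genes (median 2) and 8 further CA3 columns labelled as NPY-positive on 0 to 6 (median 1.5), at depths of 40934 to 6235022 reads. *Nrxn2* was read in 6 of the 9 AC and 6 of the 8 CA3 columns, *Nrxn3* in 5 and 1, and *Lrrtm2* in 1 and 0. N51 of AC carried 2097 reads on *Nrxn2* (1121 CPM) and 2 on *Nrxn3*, and N48 of AC carried 5898 reads on *Nlgn3* (1149 CPM), above the highest cells of either gene in the comparison. *Npy* was at 0 in 7 of these 8 CA3 and 5 of these 9 AC columns. N51 held mixed markers, with pyramidal neuron markers at 2358 CPM, GABAergic markers at 1091 CPM and *Npy* at 1717 CPM. N48 held GABAergic markers at 1.17 CPM and *Npy* at 478 CPM. Astrocyte markers summed to more than 1000 CPM in 1 of these AC and 4 of these CA3 columns, and oligodendrocyte markers in 0 and 4. Their part in these values was not tested.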
